A study of Mus musculus with 2 samples.

Results

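Kv7 potassium channels and HCN pacemaker channels were examined through 6 genes: Kcnq3 and Kcnq5, which encode Kv7 subunits; Hcn2, Hcn3 and Hcn4, which encode HCN subunits; and Pex5l, which encodes TRIP8b, an auxiliary subunit of HCN channels. They were chosen by symbol, and all 6 were found among the 55536 annotated genes of the deposited gene tables. Other members of the channel families were described only where a list below names them. The samples were 2 RNA libraries of mouse hippocampus, biological replicates 1 and 2, and no condition was compared. Both came from female mice of the hybrid strain B6CASTF1/J aged 10 days, and each was a pool of 3 females whose numbers differ between the pools. The labels call the tissue a layer of the hippocampus without naming the layer, and give 300 ng as the starting amount of RNA, with ERCC spike-in RNAs for stranded libraries reduced in ribosomal RNA. The mm10 reference used by the authors is the genome of B6, one parent of the hybrid, and the files do not separate the parental alleles.

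Kv7 subunits form voltage-gated potassium channels that open slowly below the spike threshold and do not inactivate. In hippocampal neurons they carry the M-current, which restrains repetitive firing and is shut off when muscarinic receptors act through phospholipase C to lower the membrane lipid PIP2. HCN subunits form channels that open when the membrane hyperpolarizes, pass a mixed sodium and potassium inward current, and are opened further by cyclic AMP. TRIP8b binds the tail of HCN subunits, competes with cyclic AMP and sets how many channels reach the cell surface, in a way that depends on its own splicing.

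The libraries held 29858328 and 32275110 expected counts, the estimated numbers of reads per gene that the authors deposited. Levels are given as TPM, a share of all transcripts after division by transcript length, so that they can be compared between genes. Nuclear protein-coding genes took 45.2% and 44.5% of all TPM. Markers of the labelled tissue were present in both libraries: summed over each list, glutamatergic forebrain neuron markers reached 1819 and 2207 TPM (Camk2a was highest), CA1 markers 179 and 177 (Mpped1), CA3 markers 147 and 183 (Nptx1), dentate granule markers 86.3 and 108 (Prox1) and interneuron markers 395 and 437 (Sst). Markers of other cells were present too: astrocytes 1344 and 1503 TPM (Slc1a2), oligodendrocyte precursors 149 and 159 (Olig1), microglia 79.3 and 95.4 (Csf1r), endothelium 64.7 and 65.1 (Cldn5) and choroid plexus 432 and 680 (Ttr). The choroid plexus sum was almost all Ttr, at 422 and 670 TPM. Folr1 of that list stood at 7.51 and 7.71, and Kl at 2.22 and 2.48. In bulk tissue, fewer cells of a type and less RNA per cell cannot be told apart.

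The Kv7 genes lie on different chromosomes. Kcnq3 (ENSMUSG00000056258.9) spans chr15:65986387-66286642 and Kcnq5 (ENSMUSG00000028033.16) spans chr1:21398403-21961942 on mm10, both on the minus strand. In the annotation, GENCODE M21, Kcnq3 has 1 coding transcript, Kcnq3-201, of 873 codons, and Kcnq5 has 4. Each gene has a short coding exon of 27 bases, the ninth coding exon of Kcnq3-201 and of Kcnq5-203. These exons are shown because the Kcnq5 copy is skipped in 1 of its 4 coding transcripts, whereas the only Kcnq3 coding transcript keeps it. Capitals mark the 21 of 27 bases that are identical, and the sequences, like those further on, are read 5′ to 3′ from the GENCODE M21 transcripts.
Kcnq3 27-base exon, chr15:66016449-66016475, minus strand: GAAAGAACAActGGAaGCAgCAgcCAG
Kcnq5 27-base exon, chr1:21466383-21466409, minus strand: GAAAGAACAAggGGAgGCAtCAagCAG
Next to it, Kcnq5 has a 57-base exon that is found in Kcnq5-203 alone and takes its reading frame from the 933 codons of Kcnq5-201 to 952. It is shown because it separates the pair of most abundant Kcnq5 transcripts.
Kcnq5 57-base exon, chr1:21461551-21461607, minus strand: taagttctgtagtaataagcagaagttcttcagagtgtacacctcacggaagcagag

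Of this pair, Kcnq3 was the more abundant. Its level was 57.1 TPM in replicate 1 and 59.2 TPM in replicate 2 (58.1 ± 1.51, SD, n = 2), from 9611 and 10078 counts. The libraries differed little, and the authors' credibility intervals of TPM, whose level the files do not state, overlapped (51.7 to 59.1 and 53.7 to 61.3). Kcnq3 ranked 1753 of 22015 nuclear protein-coding genes, above 92.0% of them.

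Kcnq5 stood at 27.1 TPM in replicate 1 and 29.6 TPM in replicate 2 (28.3 ± 1.80, SD, n = 2), from 3102 and 3543 counts. It was slightly higher in replicate 2, with overlapping intervals (25.1 to 28.2 and 27.3 to 30.7), and ranked 3973. Within a library, Kcnq3 exceeded Kcnq5 by 1.07 log2 units of TPM + 0.1 in replicate 1 and 1.00 in replicate 2 (1.04 ± 0.05, SD, n = 2), a ratio of 2.05. Of the TPM of this pair, Kcnq3 made up 67.8% and 66.7%, nearly the same share in both pools. Over coding transcripts alone the lead of Kcnq3 was smaller, at 36.5 ± 1.07 TPM against 26.0 ± 0.92 for Kcnq5. The log2 ratio was then 0.49 ± 0.09 (all SD, n = 2).

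The HCN genes also lie on separate chromosomes: Hcn2 (ENSMUSG00000020331.9) at chr10:79716634-79736108 on the plus strand, Hcn3 (ENSMUSG00000028051.10) at chr3:89146074-89160196 on the minus strand and Hcn4 (ENSMUSG00000032338.9) at chr9:58823412-58863175 on the plus strand. Their coding models have the same layout, 8 coding exons each, but encode 863, 779 and 1201 codons. Exons 3 to 7 have equal lengths in all 3 genes, and the lengths differ at the ends. Over the exons of equal length, Hcn2 and Hcn3 were identical at 78.9% of 934 bases, Hcn3 and Hcn4 at 81.8% of 934 bases, and Hcn2 and Hcn4 at 82.6% of 1358 bases. The fifth coding exon, the shortest shared one at 147 bases, is shown to let the degree of likeness be seen. Capitals mark the 113 of 147 bases that are the same in all 3 genes.
Hcn2 147-base exon, chr10:79730847-79730993, plus strand: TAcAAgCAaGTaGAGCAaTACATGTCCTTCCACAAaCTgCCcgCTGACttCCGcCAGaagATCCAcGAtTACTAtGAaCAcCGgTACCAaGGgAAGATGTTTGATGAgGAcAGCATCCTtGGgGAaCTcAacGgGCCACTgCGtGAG
Hcn3 147-base exon, chr3:89150355-89150501, minus strand: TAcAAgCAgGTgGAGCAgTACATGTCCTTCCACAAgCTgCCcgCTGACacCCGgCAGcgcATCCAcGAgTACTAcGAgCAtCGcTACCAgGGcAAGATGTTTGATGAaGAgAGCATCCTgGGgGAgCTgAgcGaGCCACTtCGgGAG
Hcn4 147-base exon, chr9:58857717-58857863, plus strand: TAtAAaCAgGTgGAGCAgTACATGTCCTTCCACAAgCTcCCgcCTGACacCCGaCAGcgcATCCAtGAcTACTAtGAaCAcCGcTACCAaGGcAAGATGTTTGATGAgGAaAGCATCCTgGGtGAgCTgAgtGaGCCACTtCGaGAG
The longest stretch of coding sequence shared without a mismatch was 33 bases between Hcn2 and Hcn3, 32 bases for each of the other pairs of HCN genes, and 14 bases between Kcnq3 and Kcnq5. The authors' posterior standard deviation of the gene count, which grows when reads cannot be assigned to 1 gene, was 0 for all 6 genes in both libraries.

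Hcn2, whose channels respond strongly to cyclic AMP, was the leading HCN gene of the 3 at 36.9 TPM in replicate 1 and 40.1 TPM in replicate 2 (38.5 ± 2.32, SD, n = 2), from 2358 and 2817 counts. Replicate 2 was the higher library, and the authors' intervals did not overlap (34.3 to 37.2 and 37.6 to 40.4). Hcn2 ranked 2868 of the 22015 genes.

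Hcn3, whose channels respond little to cyclic AMP, stood at 13.5 TPM in replicate 1 and 10.5 TPM in replicate 2 (12.0 ± 2.13, SD, n = 2), from 880 and 742 counts. Here replicate 1 was the higher library, with intervals that just overlapped (12.2 to 16.0 and 9.25 to 12.6). Hcn4, the main pacemaker subunit of the sinoatrial node and a subunit used by thalamic neurons, was lowest at 4.53 and 3.27 TPM (3.90 ± 0.891, SD, n = 2), from 563 and 446 counts. It was again higher in replicate 1, and the intervals did not overlap (4.03 to 4.75 and 2.89 to 3.48). Hcn3 ranked 7544 and Hcn4 10937, the latter close to the middle of the protein-coding genes.

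The summed TPM of Hcn2, Hcn3 and Hcn4 was nearly the same in both pools, 54.9 and 53.9, but its make-up was not. Hcn2 took 67.1% of it in replicate 1 and 74.4% in replicate 2. Hcn3 took 24.6% and 19.5%, and Hcn4 took 8.25% and 6.06%. The ratio of Hcn2 to Hcn4 therefore ran from 3.00 log2 units in replicate 1 to 3.58 in replicate 2 (3.29 ± 0.41, SD, n = 2), and that of Hcn2 to Hcn3 from 1.44 to 1.92 (1.68 ± 0.34). Hcn3 over Hcn4 moved less, at 1.56 and 1.66 (1.61 ± 0.07).

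Pex5l (ENSMUSG00000027674.16, chr3:32949408-33143247, minus strand) was the most abundant of the 6 genes at 74.4 TPM in replicate 1 and 78.6 TPM in replicate 2 (76.5 ± 2.92, SD, n = 2), from 4151 and 4816 counts. The libraries were close, with overlapping intervals (69.9 to 75.4 and 74.0 to 80.3), and the gene ranked 1214, above 94.5% of protein-coding genes. Its TPM exceeded the summed TPM of Hcn2, Hcn3 and Hcn4 by factors of 1.36 and 1.46 (1.41 ± 0.0717, SD, n = 2). This excess depended on which transcripts were counted. Over coding transcripts alone Pex5l stood at 50.3 and 56.3 TPM. Over theirs, Hcn2 stood at 36.9 and 40.1, Hcn3 at 10.5 and 7.89 and Hcn4 at 4.53 and 3.27. These HCN values together were above Pex5l in replicate 1 and below it in replicate 2.

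By level the genes ran Pex5l, Kcnq3, Hcn2, Kcnq5, Hcn3 and Hcn4 in both libraries. All 15 pairs kept their order in both, and in all 15 the mean log2 ratio exceeded 2 SD. Between neighbours in that order the mean log2 ratio was 0.40 ± 0.02 for Pex5l over Kcnq3, 0.59 ± 0.05 for Kcnq3 over Hcn2 and 0.44 ± 0.00 for Hcn2 over Kcnq5. These steps were small, 1.51-fold at most, whereas Kcnq5 exceeded Hcn3 by 1.24 ± 0.35 and Hcn3 exceeded Hcn4 by 1.61 ± 0.07 (all SD, n = 2). With 2 libraries an exact sign-flip test cannot give a two-sided p below 0.5, so none is given for these pairs. The order of Kcnq3 and Hcn2 depended on which transcripts were counted: over coding transcripts alone Kcnq3 stood at 36.5 ± 1.07 TPM and Hcn2 at 38.5 ± 2.32, a log2 ratio of −0.07 ± 0.13 (SD, n = 2).

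**Figure D1:**
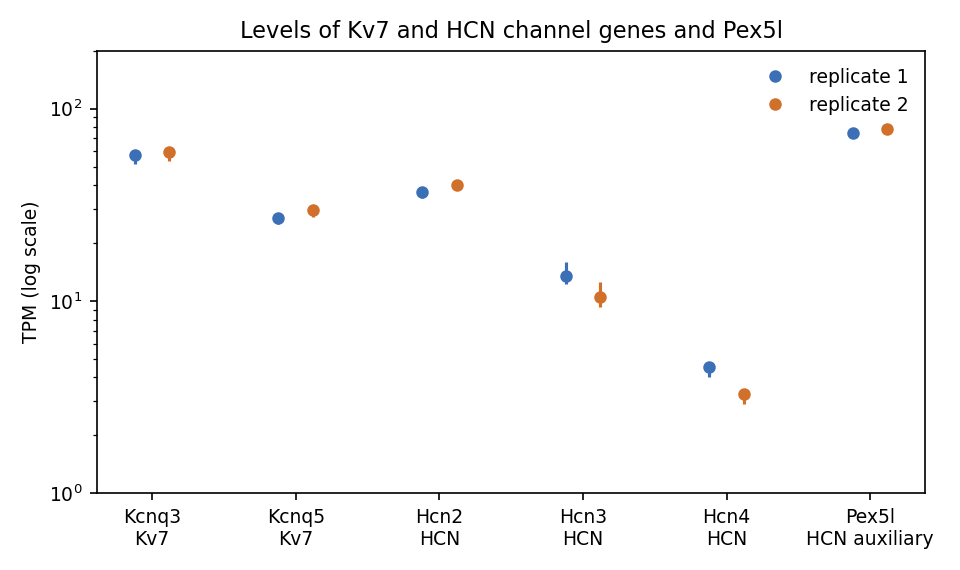
Deposited gene level (TPM, log scale) of the 6 genes in replicates 1 and 2, with vertical lines for the authors' credibility interval of each library. Pex5l lies highest at 74.4 and 78.6 TPM and Hcn4 lowest at 4.53 and 3.27; Hcn3 and Hcn4 are the genes with the lower point in replicate 2.

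To ask how far the pools differed, counts were compared with an exact two-sided binomial test, scaled by TMM and adjusted with the Benjamini-Hochberg method over 20544 genes. Such a p compares these 2 libraries, not conditions. None of the 6 genes passed an adjusted p of 0.05 together with a log2 ratio of at least 1 in either direction, against 582 of all tested genes (2.83%; 0.574% with the higher value in replicate 2 and 2.26% in replicate 1). Few well-counted genes passed both limits: 11 (0.136%) of the nuclear protein-coding genes with at least 1000 counts. By the adjusted p alone 5 of 6 passed, 3 higher in replicate 2 and 2 higher in replicate 1. The background for this was 27.1% of all tested genes (15.7% higher in replicate 2 and 11.5% higher in replicate 1), and 44.9% of the 8061 nuclear protein-coding genes with at least 1000 counts. The median log2 ratio of the 6 genes was 0.10, beside −0.01 over all genes tested.

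Kcnq3 was the gene that did not pass with TMM scaling, with a log2 ratio of replicate 2 to replicate 1 of 0.03 (95% counting interval −0.01 to 0.08, binomial p = 0.0898, adjusted p = 0.215). Higher in replicate 2 were Hcn2, with a ratio of 1.17 (log2 0.22, interval 0.14 to 0.30, adjusted p = 3.94e-07), Pex5l with 1.13 (log2 0.18, 0.12 to 0.24, adjusted p = 4.83e-08) and Kcnq5 with 1.12 (log2 0.16, 0.09 to 0.23, adjusted p = 7.92e-05). When the libraries were scaled by their spike-in totals instead, which moved the median of all genes from −0.01 to −0.29, these 3 ratios and that of Kcnq3 turned negative. Which of the 6 passed the binomial test by adjusted p also changed. With spike-in totals Kcnq3 passed (log2 −0.25, adjusted p = 6.65e-32) and Hcn2 did not (adjusted p = 0.201). The background with spike-in totals was 1.86% of all genes higher in replicate 2 and 52.4% higher in replicate 1. With library totals Kcnq3 and Kcnq5 did not pass (adjusted p = 0.107 and 0.0774), and with read-based counts Kcnq3 passed (log2 0.05, adjusted p = 0.0297). Hcn3 was 1.21-fold higher in replicate 1 (log2 −0.28, −0.42 to −0.14, adjusted p = 0.000784), and Hcn4 was 1.29-fold higher there (log2 −0.37, −0.55 to −0.19, adjusted p = 0.000432). Both kept this direction under every scaling tried, at −0.56 and −0.65 with the spike-ins. Among 12071 nuclear protein-coding genes with at least 200 counts, the TMM ratio of Hcn4 was above 3.87% of genes and that of Hcn3 above 7.17%, while Hcn2 was above 86.6%. Intervals cover counting error only.

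**Figure D2:**
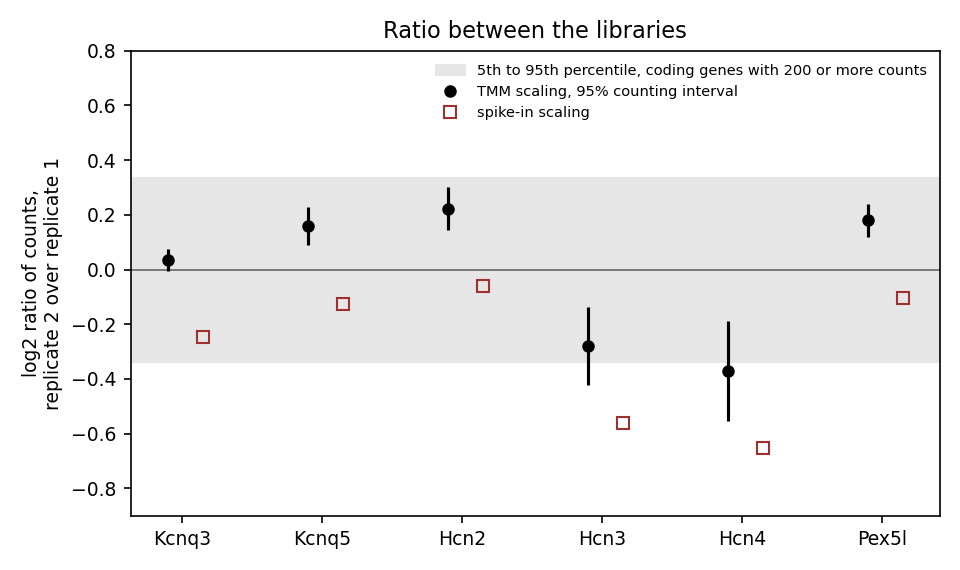
Log2 ratio of counts, replicate 2 over replicate 1, with TMM scaling (points, 95% counting interval) and with spike-in scaling (open squares); the band spans the 5th to 95th percentile of protein-coding genes, −0.34 to 0.34. With TMM scaling Hcn3 and Hcn4 lie below 0 and Kcnq5, Hcn2 and Pex5l above it, and with spike-in scaling all 6 lie below 0.

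The ratios of all 13 marker lists were taken beside those of the 6 genes. These lists were chosen with earlier results of these data known. Their counts therefore describe the 2 libraries and are no independent evidence of a difference between the pools. Of 8 thalamus and habenula markers, 6 were at 1 TPM or more in both libraries. Their summed level was 70.4 TPM in replicate 1 and 49.7 TPM in replicate 2, with a median log2 count ratio of −0.50. By the adjusted p, 4 of 7 tested were higher in replicate 1 under all 4 scalings: Slc17a6, Tcf7l2, Lef1 and Gbx2. With TMM 1, Rora, was higher in replicate 2. The background with TMM was 11.5% of all genes higher in replicate 1 and 15.7% in replicate 2. Gbx2 was also called by the fold rule, but near the floor, at 0.24 and 0.04 TPM from 10 and 1 counts. Slc17a6, the vesicular glutamate transporter of thalamic neurons, stood at 25.2 and 14.0 TPM. Pou4f1, a habenula marker, was at 0.02 and 0.01, while Tac2 of the same list was at 2.48 and 2.06, from 29 and 27 counts. Neocortex and subiculum markers summed to 184 and 129 TPM (median log2 ratio −0.14). By the adjusted p 3 of 7 (Fn1, Tbr1 and Tshz2) were higher in replicate 1, with Fn1 at 57.1 and 36.3 TPM, and Tshz2 was also called by the fold rule. In the other direction, all 6 markers of myelinating oligodendrocytes were called higher in replicate 2, beside 0.574% of all tested genes. Their sum there was 570 TPM against 194 (median log2 ratio 1.72), with Mbp at 80.5 and 253. Several lists of hippocampal and glial cells also had members higher in replicate 2 by the adjusted p with TMM scaling: 4 of 4 dentate granule markers (median log2 ratio 0.47), 3 of 4 CA3 (0.41), 3 of the 4 glutamatergic markers reported here (0.38), 6 of 8 interneuron (0.26, with Pvalb called by the fold rule too) and 5 of 6 astrocyte markers (0.21). Elavl4 of the CA3 list was higher in replicate 1. The background with TMM was 15.7% of all genes higher in replicate 2 and 11.5% higher in replicate 1. In either direction it was 44.9% of the nuclear protein-coding genes with at least 1000 counts. With spike-in totals the numbers of these 5 lists higher in replicate 2 became 2, 2, 2, 2 and 1, beside 1.86% of all genes. Those higher in replicate 1 became 0, 1, 1, 2 and 4, beside 52.4% of all genes. The other lists with members higher in replicate 2 with TMM were CA1 (1 of 4, −0.03, with Pou3f1 higher in replicate 1), oligodendrocyte precursors (3 of 4, 0.17), microglia (2 of 4, 0.22), endothelium (1 of 3, 0.13) and choroid plexus (1 of 3, 0.25). The part of these cells in the ratios of Hcn3, Hcn4, Hcn2, Kcnq5 and Pex5l was not tested.

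The transcripts of each gene were described from the deposited share of the gene's TPM that each transcript takes, in an alignment-based table and, for comparison, in a read-based table that the authors made straight from the reads. Hcn4 has 1 annotated transcript, Hcn4-201. Hcn2 has 2 with the same 2589-base reading frame, and Hcn2-202 took 100% in both tables and both libraries. The HCN genes thus offered little choice of coding transcript: Hcn3-201, the only coding transcript of Hcn3, took 77.5% and 75.0%. The rest of Hcn3 was mostly in Hcn3-202 and Hcn3-203, short retained-intron models with 15.2% and 0%, and with 6.06% and 18.4%. These shares rested on 18.4 and 0 counts, and on 13.7 and 35.5 counts, and Hcn3-201 held 95.1% of the Hcn3 counts on average.

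For Kcnq3 the share depended strongly on the unit. Kcnq3-201 took 65.4% and 60.4% of the gene's TPM, but 94.0% and 94.4% of its counts. Kcnq3-202, a 666-base processed transcript without a reading frame, took 22.0% and 31.0% of TPM on 1.53% and 2.34% of the counts. TPM divides by length, and Kcnq3-201 is 11824 bases long. Kcnq3-203, a single-exon retained intron of 2979 bases, took 12.7% and 8.58%. The read-based table put Kcnq3-201 at 55.4% and 49.4% and Kcnq3-202 at 34.8% and 43.9%. Coding transcripts made up 62.9% of Kcnq3 on average, a share below which 18.2% of 10144 protein-coding genes at 5 TPM or more lay; the median of those genes was 88.0%.

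Kcnq5 was divided between coding transcripts. Kcnq5-203, with the 57-base exon, took 38.6% and 36.5%, and Kcnq5-201, without it, took 36.2% and 33.0%. Of the others, Kcnq5-205 took 8.79% and 12.1%, Kcnq5-206 took 10.0% and 8.29%, and the retained intron Kcnq5-202 took 5.47% and 8.74%. The lead of Kcnq5-203 over Kcnq5-201 did not hold in the read-based table, where Kcnq5-201 led with 34.5% and 34.3% against 24.8% and 29.1%. Of the TPM in coding transcripts, those with the 57-base exon held 41.2% and 40.6% by alignment and 29.6% and 34.3% by the read-based table. Those with the 27-base exon held 89.3% and 90.8%, and 74.7% and 79.5%. A 221-base and a 109-base exon further on, skipped together in Kcnq5-205, were in 90.6% and 86.5%, and in 96.0% and 95.2%. Skipping of the 27-base exon rested on Kcnq5-206 alone, whose level was poorly bounded by alignment. The authors' interval of its TPM ran from 0.000171 to 3.58 in replicate 1 and from 3.72e-05 to 4.17 in replicate 2.

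Pex5l had the most forms, 12 annotated transcripts of which 9 are coding and 7 reached 5% on average. Its coding transcripts begin at alternative first exons, and N-terminal splice forms of TRIP8b are known to raise or lower HCN channels at the surface, so the most used starts are shown. Pex5l-206 starts at the far exon and skips a 72-base exon, giving 567 codons. In contrast, 6 other coding transcripts, among them Pex5l-205, Pex5l-209 and Pex5l-211, start at a nearer exon and give 615 or 650 codons. Capitals mark the start codon.
Pex5l-206 first coding stretch, chr3:33142849-33142869, minus strand: ATGtaccagggacacatgcag
Pex5l-209 first coding stretch, chr3:33081976-33082068, minus strand: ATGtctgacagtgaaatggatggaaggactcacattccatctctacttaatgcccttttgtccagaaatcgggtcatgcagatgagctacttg
The difference between 615 and 650 codons is a 105-base exon, carried by Pex5l-209, Pex5l-210 and Pex5l-211.
Pex5l 105-base exon, chr3:33024696-33024800, minus strand: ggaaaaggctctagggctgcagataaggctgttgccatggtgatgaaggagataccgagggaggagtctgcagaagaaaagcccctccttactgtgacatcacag

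The far start of Pex5l-206 held 50.4% and 53.8% of the TPM in coding transcripts by alignment, and the nearer start shared by 6 transcripts held 49.6% and 42.1%. Neither start held most of the coding TPM by a wide margin in that table. The read-based table gave the far start less, 33.7% and 29.3%, and the nearer start 46.2% and 40.0%. It placed the rest on Pex5l-204 (12.9% and 12.6%) and Pex5l-203 (7.12% and 18.1%), which the alignment-based table put at 0% and 0.995%, and at 0% and 3.06%. The 105-base exon was in 24.3% and 25.0% by alignment and in 41.0% and 38.2% by the read-based table, and the 72-base exon in 49.6% and 43.1%, and in 59.1% and 52.6%. For the far start and for both exons the tables differed by more than the libraries did within a table. The authors' interval of TPM for Pex5l-209, which carries both exons, ran from 7.85e-05 to 9.27 in replicate 1 and from 5.27 to 10.8 in replicate 2.

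Of all Pex5l TPM, Pex5l-206 took 34.1% and 38.6%, Pex5l-205 17.1% and 12.3%, Pex5l-209 11.2% and 11.7%, and Pex5l-211 5.23% and 6.21%. Transcripts without a reading frame took a sizeable share: the retained introns Pex5l-202 (14.5% and 16.7%) and Pex5l-212 (10.4% and 7.15%) and the processed transcript Pex5l-207 (7.51% and 4.50%). The leading form changed with the table, since Pex5l-209 led in the read-based table with 24.5% and 25.7%, close to Pex5l-206 at 23.9% and 23.2%. Coding transcripts made up 69.6% of Pex5l on average, with 24.7% of genes lower.

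**Figure D3:**
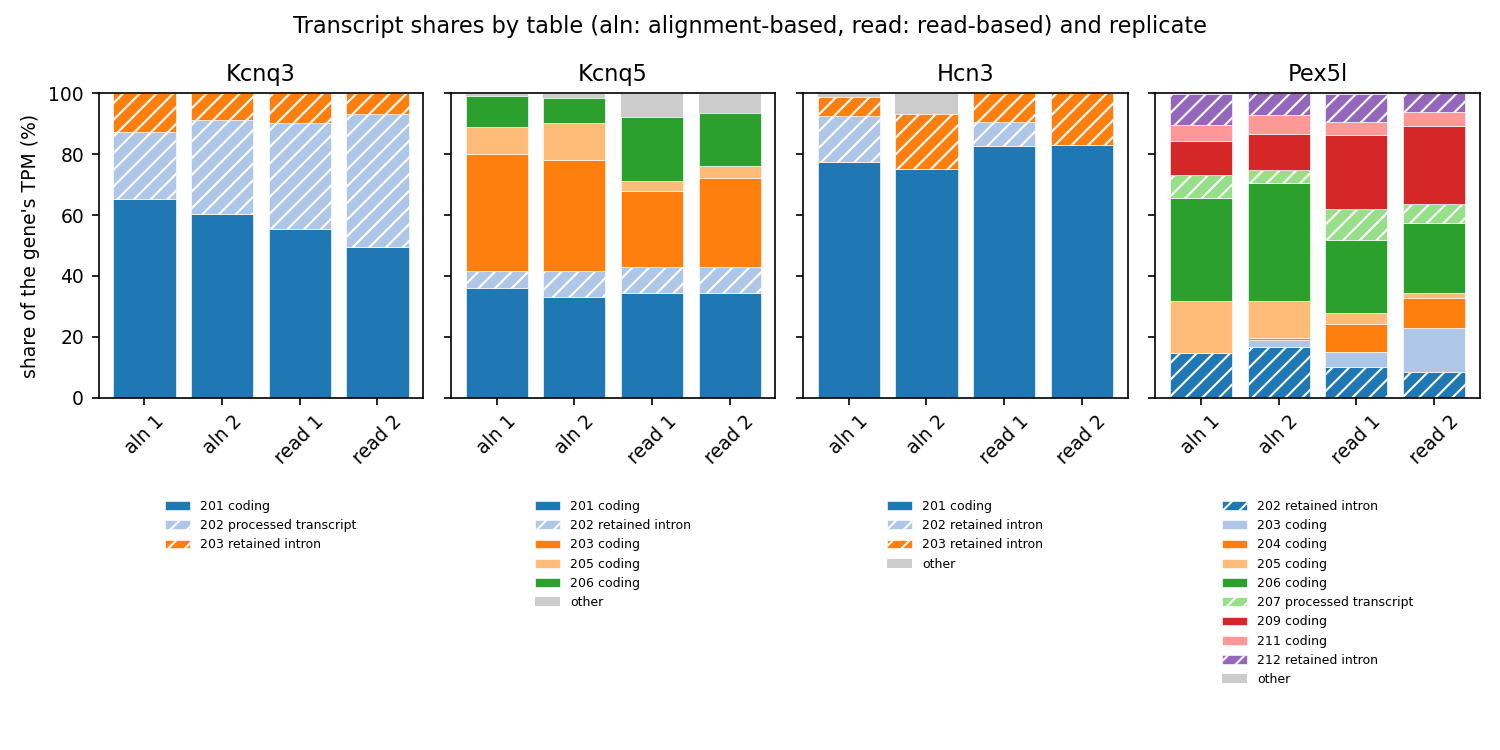
Share of each gene's TPM (%) by transcript, in the alignment-based (aln) and read-based (read) tables of replicates 1 and 2; hatched parts are transcripts without a reading frame, and "other" is the sum of transcripts averaging under 5% in both tables. Kcnq3-201 is the largest part of Kcnq3 in all 4 bars, while the leading coding transcript of Kcnq5 and of Pex5l differs between the tables.

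**Figure D4:**
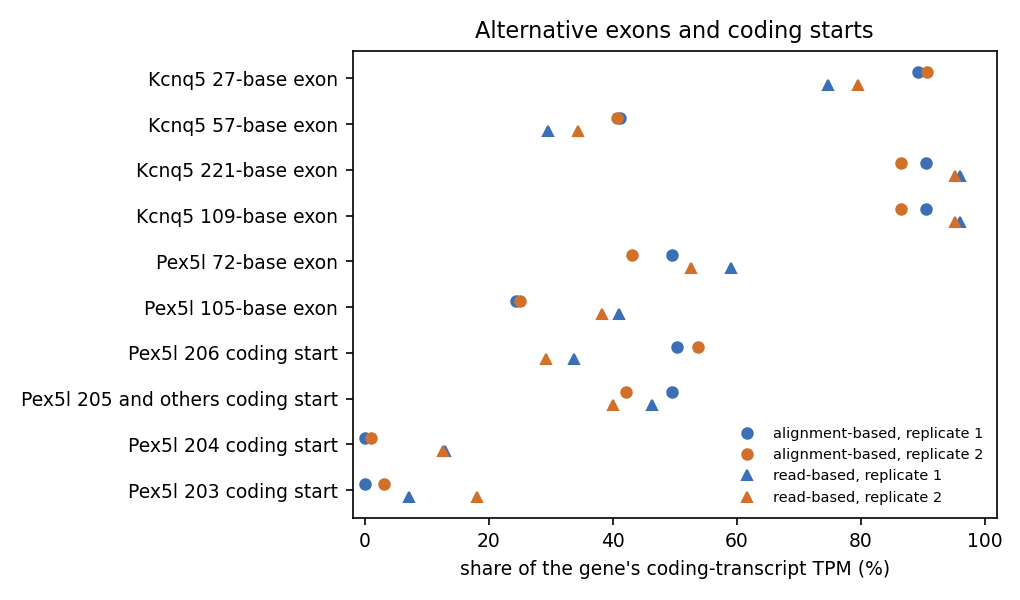
Share of coding-transcript TPM (%) held by transcripts with each alternative exon or coding start of Kcnq5 and Pex5l; circles are alignment-based and triangles read-based, by replicate. The start of Pex5l-206 lies at 50.4% and 53.8% by alignment and at 33.7% and 29.3% by the read-based table.

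Genes annotated inside the 6 loci drew few counts. They were named after their values were seen. On the opposite strand, Gm27153 within Kcnq3 had 0 and 0 counts, Pklr at Hcn3 had 5 and 3, Gm26580 at Kcnq5 had 2 and 1, and Gm37459 at Pex5l had 2 and 1. The highest counts were on the same strand within Pex5l, 198 and 163 for Gm19445 and 117 and 118 for Gm37443. The labels and files used here do not say whether counting took strand into account, so reads of a gene and of a partner on the other strand may not be separable.

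The other listed Kv7 and KCNE genes stood lower than Kcnq3 and Kcnq5 in both libraries. Kcne1l (Kcne5), which encodes a small KCNE accessory subunit, was highest at 12.1 and 13.0 TPM. Kcne2, another accessory subunit, stood at 1.19 and 1.08 TPM, Kcnq1, the Kv7 subunit of the heart, at 1.02 and 0.78, and Kcne4 at 0.49 and 0.29. Of 6 listed, 2 were at 1 TPM or more in both libraries and 4 could be tested. By the binomial test none of the 4 passed the adjusted p in either direction with TMM, DESeq2, library-total or spike-in scaling. At an unadjusted p below 0.05 the numbers were 0 with TMM and library totals, 1 each with DESeq2 and spike-ins. By the adjusted p, 15.7% and 11.5% of all genes were higher in replicates 2 and 1 with TMM, and 1.86% and 52.4% with spike-ins. Few counts limited the test: Kcnq1 had 22 and 37, Kcne2 39 and 39, and Kcne4 26 and 17, while Kcne1l had 360 and 424.

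Genes that regulate Kv7 channels were well represented, with all 15 listed at 1 TPM or more. Calmodulin, which is bound to Kv7 subunits, was encoded at 959 and 1186 TPM by Calm3 and at 898 and 833 by Calm2. Ank3, which encodes the ankyrin that anchors Kv7 channels at the axon initial segment, stood at 222 and 199 TPM. Pip5k1c, a kinase that makes PIP2, stood at 133 and 137 TPM, and Chrm1, a muscarinic receptor that shuts off the M-current, at 51.4 and 60.0. By count ratio with TMM scaling, 9 of 15 lay higher in replicate 2 and 1, Plcb4, in replicate 1 by the adjusted p (median log2 0.15), beside 15.7% and 11.5% of all genes and 44.9% in either direction of those with 1000 or more counts, and none reached a log2 ratio of 1. With spike-in scaling the direction turned, to 1 higher in replicate 2 and 13 higher in replicate 1 (median −0.13), beside 1.86% and 52.4% of all genes. The 1 that remained higher in replicate 2 was Chrm1, and Plcb4, a phospholipase C, was named after its value was seen.

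Of 14 HCN partners and cyclic nucleotide enzymes, 13 were at 1 TPM or more in both libraries. Flna, which encodes the actin crosslinker filamin A, stood at 110 and 74.7 TPM, a log2 count ratio of −0.47. Adcy1, a calcium-stimulated adenylyl cyclase that makes cyclic AMP, stood at 91.3 and 79.9 TPM, Kctd3, a partner of HCN channels, at 49.7 and 41.8, and Vapb, another partner, at 42.2 and 45.8. With TMM scaling, 5 of 14 lay higher in replicate 2 while 4 were higher in the other library by the adjusted p (median log2 0.07). The background was the same 15.7% and 11.5% of all genes. It was 44.9% in either direction of the nuclear protein-coding genes with 1000 or more counts. With spike-in scaling the numbers were 1 and 8 (median −0.21), beside 1.86% and 52.4%. With TMM the 5 were Grasp, Adcy2, Adcy3, Adcy9 and Pde4b, and the 4 were Flna, Adcy1, Adcy8 and Pde4d; those outside the naming rule were named after their values were seen. Grasp was the 1 still higher in replicate 2 with the spike-ins.

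**Figure D5:**
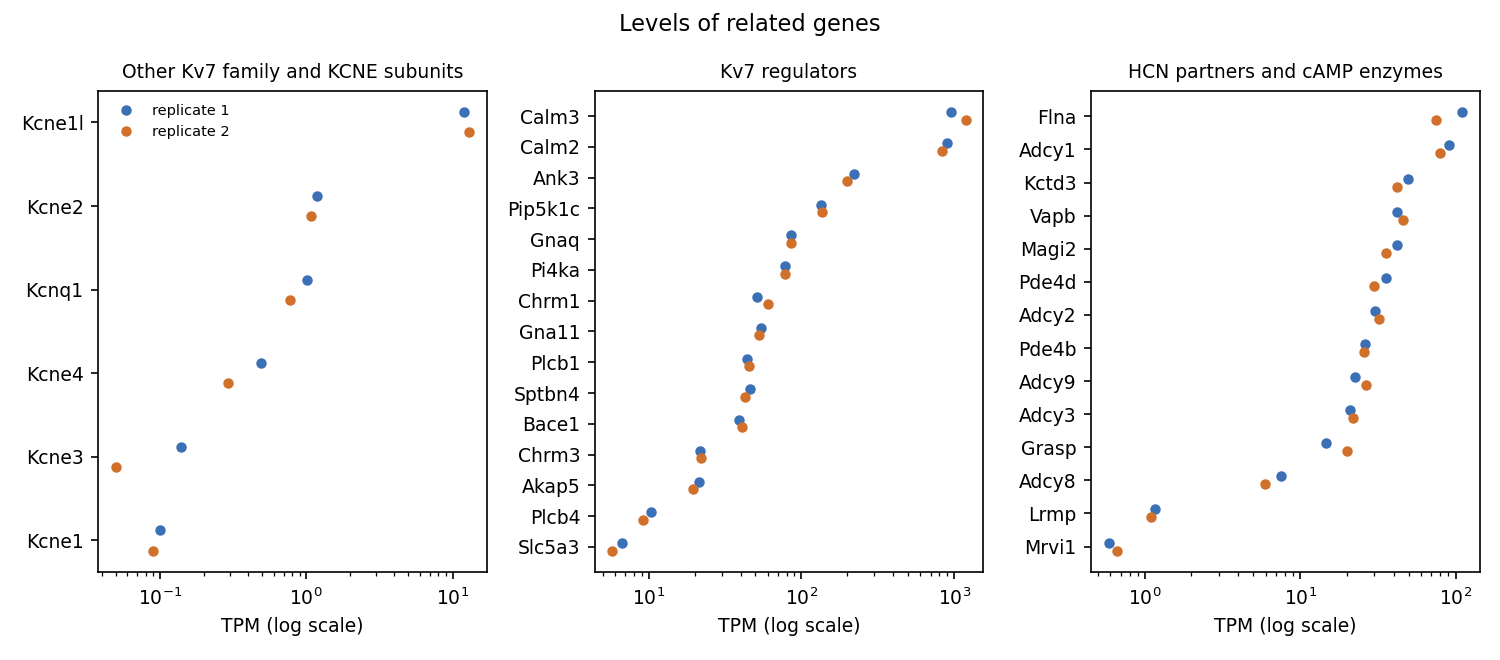
TPM (log scale) in replicates 1 and 2 for the 6 other Kv7 and KCNE genes, the 15 Kv7 regulators and the 14 HCN partners and cyclic nucleotide enzymes. Calm2 and Calm3 lie highest, between 833 and 1186 TPM, and Kcne1l leads the first panel at 12.1 and 13.0.

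Among these 35 related genes, the one nearest to each member was found by the distance between their log2(TPM + 0.1) values over 2 libraries. It was Pi4ka for Pex5l (distance 0.0590), Bace1 for Hcn2 (0.0826), Chrm1 for Kcnq3 (0.153), Adcy2 for Kcnq5 (0.207), Kcne1l for Hcn3 (0.339) and Slc5a3 for Hcn4 (0.976). The distances for Hcn3 and Hcn4 were the largest of the 6, and with 2 libraries the measure describes likeness of level only.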

How the data were processed

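Total RNA-seq of 2 hippocampus libraries was analysed. The authors deposited, per library, an alignment-based gene table and transcript table with expected counts, TPM, FPKM, credibility bounds of TPM and the percent of a gene's transcripts that each transcript makes up, and a read-based transcript table with estimated counts and TPM. Per the file headers and notes these rest on mm10 and annotation M21, with columns laid out as RSEM and kallisto write them. Which programs and versions were run, the read length and the use of strand were not stated in the labels or files used here. Spike-in rows held 0.341% and 0.393% of the counts and, like other rows that name no gene, stayed out of the tests.

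Expected counts were rounded. Replicate 2 was compared with replicate 1 by an exact two-sided binomial test with 0.5 counts added for log2 ratios, for genes with 10 or more counts, scaled by TMM (edgeR 4.0.16, R 4.3.3) with DESeq2 1.42.0 size factors, library totals and ERCC totals as alternatives. On simulated data (20667 genes, replicate 2 against replicate 1) the test called 100 of 100 genes raised 4-fold, 100 of 100 lowered 4-fold and 0 unchanged genes. The simulated libraries differed by counting noise alone, and the changed genes had 100 or more counts. They held no variation between pools, so they cannot tell how often unchanged genes are called between real pools. Pairs of genes were compared within a library on log2(TPM + 0.1). Both libraries belong to 1 group, and the replicates are separate pools. Exons were read from the annotation and sequences from the M21 transcripts with Python 3.11.15. Protein sequences were not used here.

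Named in the text were all 6 genes, their transcripts with a mean share of 5% or more, up to 4 genes with the highest mean TPM per related list, listed genes that were called or at 0, the nearest related gene, and the highest marker per list. The 6 genes and all lists were chosen with earlier results of these data known, and some listed genes are not reported here. Markers beside the highest of each list were named after their values were seen. Transcripts of Pex5l under 5% were named where they carry a coding start or exon described.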

Additional observations from a re-analysis of the deposited data

How the results depend on the processing

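The median level of the 6 genes was 33.4 TPM. It became 50.8 with read-based TPM, 74.5 with TPM rescaled over nuclear protein-coding genes and 23.3 as FPKM, and 31.3 over coding transcripts alone, a setting chosen after seeing the data. Leaving out 1 library gave 32.0 to 34.9. All 15 pairs were called with a pseudocount of 1 TPM, with read-based TPM and with FPKM, and 14 over coding transcripts alone, where Kcnq3 over Hcn2 reversed to −0.074. The median log2 ratio between the libraries was 0.10 with TMM, 0.11 with DESeq2 size factors, 0.12 with read-based counts and 0.02 with library totals. It reversed to −0.19 with spike-in totals, as did Kcnq3 (−0.25), Kcnq5 (−0.13), Hcn2 (−0.060) and Pex5l (−0.10), and Kcnq3 reversed to −0.043 with library totals. The cause was not tested. None of the 6 genes was called with both limits under any of these scalings, with read-based counts, or with a minimum of 1 or 50 counts, while 5 passed by the adjusted p alone with TMM. By that rule 4 passed with library totals, 6 with read-based counts and 5 in the other settings, with Kcnq3 in place of Hcn2 under spike-in totals. The background moved too. With TMM 15.7% of all tested genes passed higher in replicate 2 and 11.5% higher in replicate 1. These shares were 16.9% and 10.9% with DESeq2 size factors, 8.60% and 18.8% with library totals, and 1.86% and 52.4% with spike-in totals. Over all genes 582 were called with TMM, 1276 with spike-in totals and 311 with a minimum of 50 counts. Those higher in replicate 2 made up 20.3% of calls with TMM and 6.90% with spike-in totals. The median share of the leading transcript, 69.6%, was 67.6% by read-based TPM and 94.7% by expected counts, and 67.7 to 71.4% without 1 library. No paired analysis was possible because there is 1 group, and leaving out a library gives no ratio between libraries. For Hcn4, with 563 and 446 counts, the counting interval of the ratio was the widest of the 6.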
